A study of Homo sapiens with 12 samples.

Results

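CD44s-OE and CD44v6-OE cells of SW480 were compared across all genes, using 4 of the 12 RNAseq libraries of the series. They were chosen by their labels, as the 2 SW480 libraries of the CD44s plasmid (CD44std in the labels) and the 2 of the CD44v6 plasmid. The study asked whether the standard (CD44s) and the variant exon 6-containing (CD44v6) splice isoforms of CD44 have opposite effects on the epithelial or mesenchymal state of colon cancer cells. SW480 is an established human colon adenocarcinoma cell line. CD44s-OE and CD44v6-OE cells were stably transfected with a plasmid for the respective human isoform, with FuGENE HD as the reagent, and were selected with Geneticin. The labels name pcDNA plasmids for both isoforms, whereas the reagent list of the study gives another backbone for CD44v6, so that plasmid backbone and isoform cannot be told apart. The columns of their libraries are headed as pools, and the sources used here name no clone. The 2 parental libraries of SW480 came from cells without either plasmid, and no library of cells selected with an empty vector was among the samples, so selection and isoform cannot be told apart against parental cells. Selection is shared by both OE groups. The labels do not say whether replicates came from separate cultures, and p-values then measure only the spread between these libraries, which may be technical.

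CD44 is a membrane receptor for hyaluronan. Its variant exons are spliced in by the epithelial splicing regulators ESRP1 and ESRP2, and skipping all of them gives CD44s, the form associated with mesenchymal cells. In epithelial-to-mesenchymal transition (EMT), transcription factors such as ZEB1 and SNAI proteins bind E-boxes of the sequence CACCTG or its reverse complement CAGGTG in the promoters of junction, polarity and ESRP genes and repress them. Colon epithelial cells are otherwise held together by tight junctions of claudins, adherens junctions of cadherins and a keratin cytoskeleton.

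The SW480 libraries held 43102156 to 51038512 counts each, over 23601 to 25836 genes. The levels below are CPM (counts scaled to a common library size) after TMM normalization, and a count of 0 allows up to 6 counts (3 read pairs), for counting error only. Between the replicates of a group, the log2 level of 9518 well expressed genes differed with an SD of 0.295 in CD44s-OE, 0.219 in CD44v6-OE and 0.418 in parental cells. The CD44 gene, whose count sums all isoforms, was at 179 and 204 CPM in CD44s-OE, at 131 and 146 CPM in CD44v6-OE and at 188 and 163 CPM in parental cells. CD44s-OE overlapped with parental cells and both CD44v6-OE libraries lay below them. CD44 passed the test neither between the OE groups (log2 difference 0.46, adjusted p = 0.274) nor against parental cells (0.12 in CD44s-OE, adjusted p = 0.777, and -0.34 in CD44v6-OE, adjusted p = 0.575). Overexpression of either isoform was thus not seen in the gene's total count, which cannot check the isoforms. The study itself examined CD44s and CD44v6 in its SW480 OE cells by RT-qPCR and western analysis. CD44s-OE and CD44v6-OE mean throughout the libraries labelled so. CD44-AS1, which is annotated on the opposite strand within CD44, had 3 and 0 counts in CD44s-OE against 154 and 177 in CD44v6-OE, and it was called lower in CD44s-OE. Parental cells had 1 and 0 counts of CD44-AS1, so that CD44v6-OE was the group that stood apart. Of 13 markers of colon epithelial identity, 5 (CDX1, KRT20, GPA33, CDH17 and LGR5) stayed below 1 CPM in all 6 libraries, whereas KRT8, KRT18, ASCL2 and CDX2 were well above it. Scaled to total counts only, the 13 markers summed to 8682 and 10150 CPM in CD44s-OE, to 15288 and 13997 CPM in CD44v6-OE and to 17507 and 17606 CPM in parental cells. KRT8, KRT18 and KRT19 made up most of each sum, and none of them passed the test between the OE groups. Markers of fibroblasts, leukocytes and endothelial cells summed to 3.08 to 5.87 CPM in the OE libraries with DPT, CD2, MS4A1 and KDR at 0, and neuronal markers to 20.9 to 34.0 CPM with NEFM at 0. These are bulk libraries, in which fewer cells of a type and less RNA per cell cannot be told apart.

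Tight junction, apical polarity and epithelial surface genes were at lower levels in CD44s-OE, among them CLDN7, CRB3, MAL2, EPCAM and ST14, and so was ESRP1. Genes higher in CD44s-OE were fewer and included CDH11, GNG11 and EHF. With edgeR's quasi-likelihood test and Benjamini-Hochberg adjustment over 17539 genes, 51 genes (0.291% of those tested) were called higher in CD44s-OE and 128 (0.73%) lower, where a call asks for an adjusted p under 0.1 together with a log2 fold change beyond 1.5 in size. All fold changes below are CD44s-OE minus CD44v6-OE on the log2 scale, with their standard errors, unless another contrast is named. The median over all genes tested was 0.01, and 71.5% of the called genes were lower. Without a minimum fold change, 100 genes (0.57%) passed in the higher direction and 271 (1.55%) in the lower. The counts depended on single libraries. Without CD44s-OE replicate 2, 5 genes were called higher and 33 lower. Without CD44s-OE replicate 1 the calls were 21 and 65, without CD44v6-OE replicate 1 they were 24 and 72, and without CD44v6-OE replicate 2 they were 19 and 71. Leaving out parental replicate 1 or 2 raised both counts. The parental libraries are no part of this contrast, but they enter the estimate of the spread, the filter on low counts and the scaling.

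**Figure D1:**
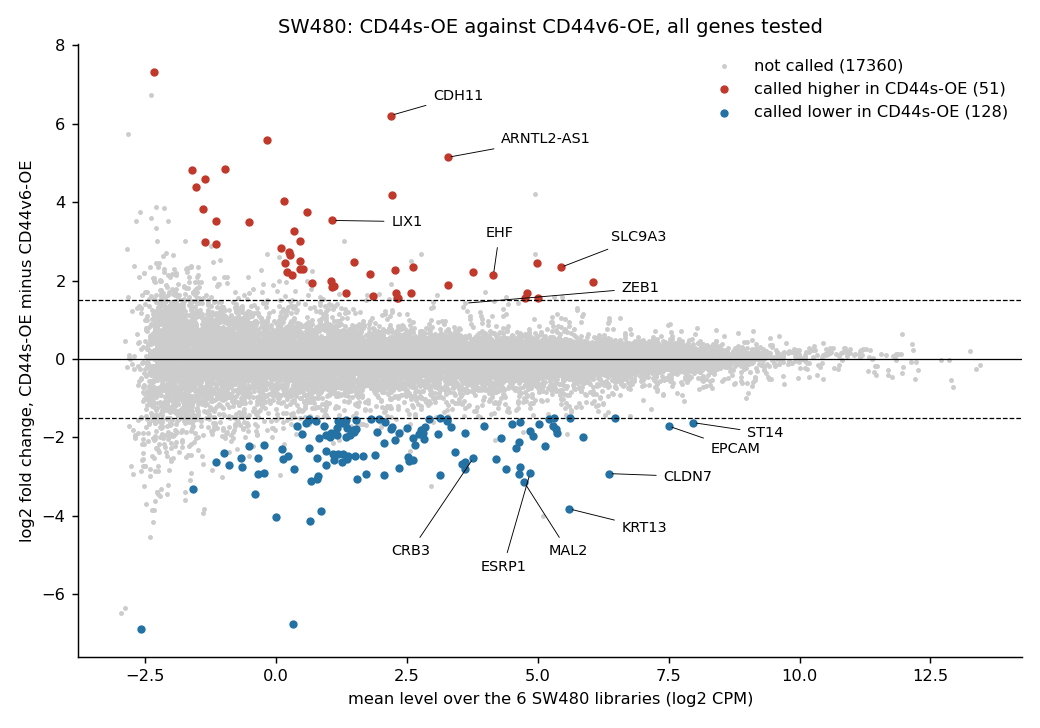
Each point is 1 of the 17539 genes tested in SW480, with its mean level over the 6 SW480 libraries (log2 CPM) on the x axis and the log2 fold change CD44s-OE minus CD44v6-OE on the y axis. The 51 genes called higher (red) and 128 called lower (blue) lie beyond the dashed lines at a fold change of 1.5 on the log2 scale, with CLDN7, EPCAM and ST14 among the called genes of high level and ZEB1 just inside the upper line.

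Tight junction genes were lower in CD44s-OE. Of 18 tested genes of the claudins and tight junction list, 4 were called lower and 0 higher, 17 had a negative fold change and the median was -0.60, against 0.01 over all genes. CLDN7 (claudin-7, hg19 chr17:7163222-7167302), a sealing claudin of colon epithelium, was at 16.9 and 17.6 CPM in CD44s-OE, at 117 and 145 CPM in CD44v6-OE and at 120 and 73.5 CPM in parental cells. Both CD44s-OE libraries lay below the other 4, and CD44v6-OE overlapped with parental cells. The CLDN7 fold change was -2.92 ± 0.24 (adjusted p = 0.000367). MARVELD3, a membrane protein of the tight junction, was at 2.07 and 1.36 CPM in CD44s-OE against 11.0 and 8.41 CPM in CD44v6-OE (-2.50 ± 0.30, adjusted p = 0.00219), with the parental libraries at 5.26 and 5.98 CPM between the groups. TJP3, a cytoplasmic scaffold of these junctions, was at 2.82 and 3.32 CPM against 10.9 and 10.5 CPM (-1.80 ± 0.23, adjusted p = 0.00349), and here too the parental libraries, at 6.86 and 6.25 CPM, stood between. F11R, the junctional adhesion molecule JAM-A, changed least of the 4, from 10.9 and 10.4 CPM in CD44v6-OE to 3.85 and 3.48 CPM in CD44s-OE (-1.54 ± 0.22, adjusted p = 0.00571). Its call was lost without CD44s-OE replicate 2 (-1.47, adjusted p = 0.137), while the calls of the other 3 remained whichever library was left out. CLDN4 (-0.56, adjusted p = 0.633) and the scaffold TJP1 (-0.32, adjusted p = 0.619) did not pass the test.

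The list of apical polarity and epithelial sorting showed the same direction in larger number. This list, like the others, was written with earlier results of these data known, so its counts carry no test. Of its 35 tested genes, 33 had a negative fold change and the median was -0.88. Without a minimum fold change, 17 passed at an adjusted p under 0.1. Of the 35 genes, 7 were called lower and 0 higher, against 0.73% called lower over all genes tested. Without CD44s-OE replicate 2, 3 of them were called. CRB3 (hg19 chr19:6463788-6467232), the Crumbs protein that marks the apical membrane of epithelial cells, was at 3.51 and 3.30 CPM in CD44s-OE, at 19.1 and 20.1 CPM in CD44v6-OE and at 18.6 and 17.2 CPM in parental cells. The CD44s-OE libraries were far below the other 4, and the fold change was -2.52 ± 0.20 (adjusted p = 0.000367). MAL2, which carries proteins to the apical surface by transcytosis, was at 4.94 and 2.38 CPM in CD44s-OE, at 28.8 and 35.9 CPM in CD44v6-OE and at 45.0 and 43.4 CPM in parental cells. Here CD44v6-OE also lay below parental cells, and the difference between the OE groups was -3.15 ± 0.30 (adjusted p = 0.00082). BICDL2, a dynein adaptor of vesicle transport, was at 0.900 and 0.374 CPM against 5.38 and 5.23 CPM (-3.06 ± 0.40, adjusted p = 0.00378). The other called members were C1orf210 (-3.07), the TMC family membrane proteins TMC4 (-2.14) and TMC5 (-1.62), and CRYBG1 (-1.90), which were at 0.197 to 1.83 CPM in CD44s-OE and at 2.29 to 7.75 CPM in CD44v6-OE. These 4 calls rested on single libraries, since C1orf210 lost its call without CD44s-OE replicate 2 (adjusted p = 0.228) or CD44v6-OE replicate 2 (0.13), TMC4 without CD44s-OE replicate 1 (0.127) or 2 (0.107), and TMC5 and CRYBG1 without any 1 of the 4 OE libraries (0.196 to 0.468 and 0.212 to 0.429). LAD1, an anchoring protein of the basement membrane, passed the adjusted p alone (-1.42, adjusted p = 0.0449).

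The windows upstream of CLDN7 and CRB3 are shown because they hold more than 1 copy of the E-box that ZEB1 and SNAI proteins bind. C1orf210, also called lower, held 2 and is not printed. Windows printed here were chosen by their content and do not stand for the lower or higher genes. Repression by these proteins was not tested. CACCTG and CAGGTG, which are each other's reverse complement, were searched in the 250 bases before the start of the RefSeq promoters of GRCh38.p14, so that each site counts once on either strand and sites cannot overlap with one another. Every window is given 5′ to 3′ on the gene's strand, ending at the base before the start, with both letter strings in capitals. The CLDN7 window (chr17:7262479-7262728, minus strand) held 4 and that of CRB3 (chr19:6464021-6464270, plus strand) 5, while that of EPHA1 (chr7:143408857-143409106, minus strand), a receptor described below, held 1. SLC9A3 (chr5:524450-524699, minus strand), a sodium-proton exchanger that was called higher, is printed as a window with 0.
CLDN7: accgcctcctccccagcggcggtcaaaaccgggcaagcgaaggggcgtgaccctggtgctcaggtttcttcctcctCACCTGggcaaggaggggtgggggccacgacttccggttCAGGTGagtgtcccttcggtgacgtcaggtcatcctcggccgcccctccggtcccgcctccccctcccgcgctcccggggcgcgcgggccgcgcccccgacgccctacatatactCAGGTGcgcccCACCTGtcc
CRB3: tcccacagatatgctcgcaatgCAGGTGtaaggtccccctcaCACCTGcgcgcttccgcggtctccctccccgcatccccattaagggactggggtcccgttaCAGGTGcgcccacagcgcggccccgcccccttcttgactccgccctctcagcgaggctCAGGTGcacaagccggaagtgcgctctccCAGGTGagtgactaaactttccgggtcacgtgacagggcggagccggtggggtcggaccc
EPHA1: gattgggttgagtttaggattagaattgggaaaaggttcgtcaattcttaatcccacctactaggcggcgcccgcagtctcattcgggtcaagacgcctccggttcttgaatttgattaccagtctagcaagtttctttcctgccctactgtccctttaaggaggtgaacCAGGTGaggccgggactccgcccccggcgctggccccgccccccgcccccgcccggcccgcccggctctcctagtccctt
SLC9A3: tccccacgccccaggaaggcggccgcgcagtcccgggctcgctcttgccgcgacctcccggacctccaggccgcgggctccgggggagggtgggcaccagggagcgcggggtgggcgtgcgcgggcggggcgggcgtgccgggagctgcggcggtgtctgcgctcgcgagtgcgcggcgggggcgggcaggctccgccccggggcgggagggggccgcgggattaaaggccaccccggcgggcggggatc
A second CLDN7 start in RefSeq, further upstream, had 0 in its window. In CRB3 the site nearest to the start spanned 60 to 55 bases before it, and in CLDN7 9 to 4 bases before it. The table matched 74 of the 128 genes called lower (57.8%), 36 of the 51 called higher (70.6%) and 11971 of all tested genes (68.3%), which is too few for the shares to be compared, so that comparison is void. As a description, at least 1 window of the gene held the motif in 42 of the 74 lower genes (56.8%), in 8 of the 36 higher genes (22.2%), in 2586 of all tested genes (21.6%) and in 5635 of the 27305 genes of the table (20.6%), where a gene can have several windows. With so many genes unmatched, these shares are not a result about the lower or higher genes. Windows were read for 36 of the genes named by rule, of which 18 had the motif. Among these, the higher genes ELAVL2 (3 in 1 window and 1 in another), TRPM3, PIP5K1B and LINC02178 (1 each) had it. The lower genes ANK3, CD74, CSF2, NT5DC4, SLC5A1, TNC, TSPAN1 and WNT10A had 0 in all windows read. A match is not a bound site.

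EPCAM and the matriptase system moved with them. EPCAM (hg19 chr2:47572297-47614740), the epithelial adhesion molecule by which the study sorted its colon cancer cells, was at 70.5 and 69.2 CPM in CD44s-OE, at 255 and 203 CPM in CD44v6-OE and at 243 and 244 CPM in parental cells. The CD44s-OE libraries were the low ones, at -1.71 ± 0.16 against CD44v6-OE (adjusted p = 0.000565). ST14 (hg19 chr11:130029677-130080257), the membrane serine protease matriptase, was at 111 and 108 CPM in CD44s-OE, at 309 and 366 CPM in CD44v6-OE and at 306 and 298 CPM in parental cells (-1.62 ± 0.16, adjusted p = 0.000579). Its inhibitor SPINT2 passed the adjusted p but not the fold limit, at 130 CPM in each CD44s-OE library against 274 and 277 CPM in CD44v6-OE (-1.08 ± 0.15, adjusted p = 0.00517). The serine protease PRSS22 was called at -2.81 ± 0.33 (adjusted p = 0.00273), but not without CD44s-OE replicate 1 (adjusted p = 0.105) or 2 (0.141). Of the 13 tested genes of this list, 3 were called lower, 0 higher, 6 passed the adjusted p in the lower direction and the median was -1.08.

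**Figure D2:**
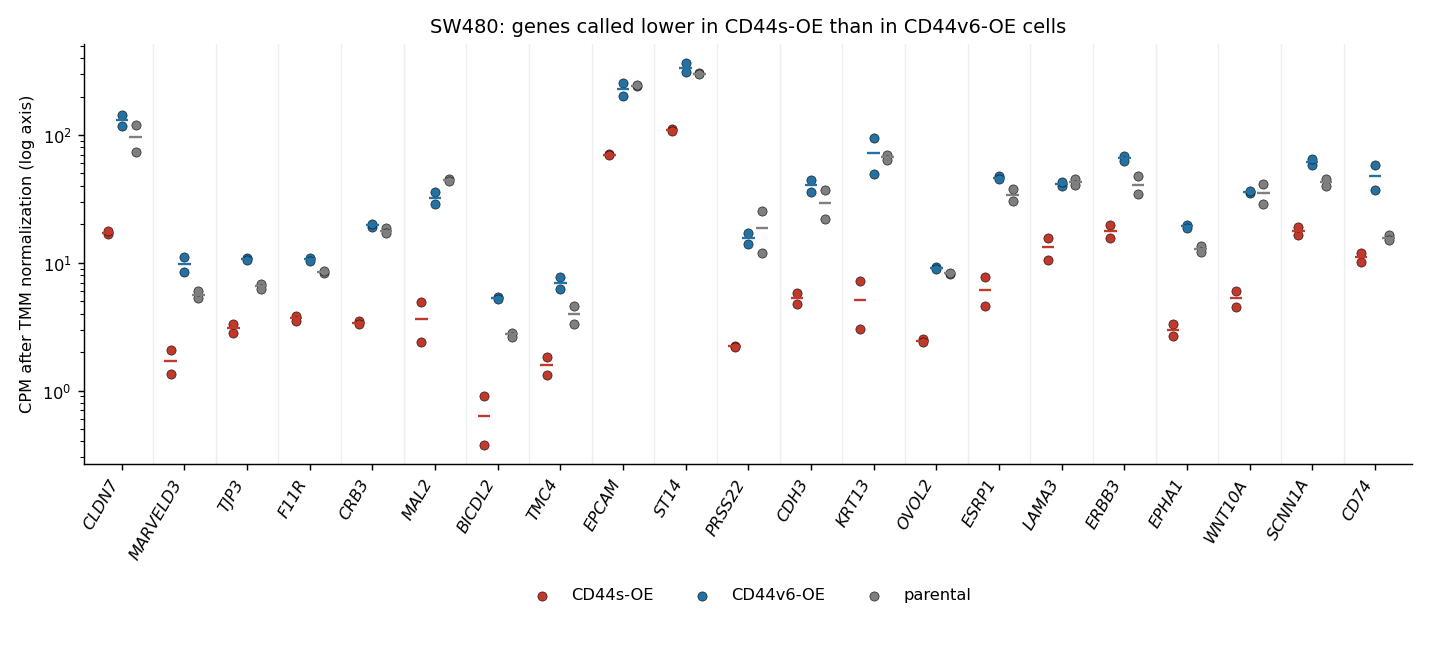
CPM after TMM normalization (log axis) of 21 SW480 genes called lower in CD44s-OE cells, with 1 point per library and a bar at the mean of the 2 libraries of CD44s-OE (red), CD44v6-OE (blue) and parental cells (grey). Every red pair lies below the blue pair of the same gene, and the parental pair lies near the blue one for CRB3, EPCAM, ST14 and LAMA3 but nearer to the red one for CD74.

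Cadherins and keratins were each lower in part. CDH3 (P-cadherin, hg19 chr16:68670092-68756519) was at 5.82 and 4.76 CPM in CD44s-OE, at 36.1 and 44.6 CPM in CD44v6-OE and at 21.9 and 37.3 CPM in parental cells. The CD44s-OE libraries lay below the other 4, and the fold change was -2.93 ± 0.27 (adjusted p = 0.000565). CDH1 (E-cadherin, hg19 chr16:68771195-68869444), the classical adherens junction cadherin, was at 1.32 and 0.885 CPM in CD44s-OE, at 5.17 and 15.7 CPM in CD44v6-OE and at 6.48 and 17.2 CPM in parental cells. Both CD44s-OE libraries were lower than the other 4, but the replicates of CD44v6-OE and of parental cells lay far from each other, and the difference of -3.24 ± 0.73 did not pass (adjusted p = 0.154). CDH1 was called in 8 of 16 other settings, among them DESeq2 (adjusted p = 0.00666), the 4 OE libraries alone (0.0562) and the fits without CD44v6-OE replicate 1 (-3.83, 0.0208) or parental replicate 2 (0.0956). KRT13 (hg19 chr17:39657233-39661957), a keratin of stratified epithelia, was at 7.22 and 3.05 CPM in CD44s-OE, at 49.6 and 95.2 CPM in CD44v6-OE and at 70.0 and 64.3 CPM in parental cells. It had the largest decrease among called genes with a symbol and an average of at least 1 log2 CPM, at -3.82 ± 0.50 (adjusted p = 0.0246), a call that was lost without parental replicate 1 (adjusted p = 0.162) or 2 (0.175) and with the 4 OE libraries alone (0.11). Its neighbour KRT15 was called as well (-1.74 ± 0.28, adjusted p = 0.0116), but not without CD44s-OE replicate 1 (0.147) or 2 (0.192) or CD44v6-OE replicate 2 (0.134). The keratins of simple epithelia did not pass. KRT8 was at 4433 and 5441 CPM in CD44s-OE against 8463 and 7805 CPM in CD44v6-OE (-0.72, adjusted p = 0.165), KRT18 had a difference of -0.52 (adjusted p = 0.34) and KRT19 of -0.49 (adjusted p = 0.333). Of 17 tested keratins 2 were called lower and 0 higher (median -0.43), and of 21 genes of desmosomes and adherens junctions 0 were called in either direction by edgeR, 2 passed at an adjusted p under 0.1 in the lower direction and the median was -0.26. JUP (plakoglobin), one of these 21, was at -0.73 (adjusted p = 0.124).

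Laminin genes of epithelial basement membranes were lower in CD44s-OE only in part. LAMA5, of high level, did not pass, at 278 and 307 CPM in CD44s-OE against 285 and 318 CPM in CD44v6-OE (-0.05, adjusted p = 0.951). LAMA3 and LAMB3 encode laminin chains on which epithelial hemidesmosomes rest. LAMA3 was at 15.8 and 10.6 CPM in CD44s-OE, at 39.8 and 42.8 CPM in CD44v6-OE and at 45.4 and 40.8 CPM in parental cells (-1.65 ± 0.21, adjusted p = 0.0032). LAMB3 was at 18.4 and 20.9 CPM against 49.3 and 62.0 CPM (-1.503 ± 0.22, adjusted p = 0.00728), so that it stood just past the fold limit. For neither gene did the CD44s-OE libraries reach those of the other groups. Without CD44s-OE replicate 2 both calls were lost, at -1.39 for LAMA3 (adjusted p = 0.0562) and -1.60 for LAMB3 (0.145), and that of LAMB3 also without CD44s-OE replicate 1 (-1.42, 0.145) or CD44v6-OE replicate 2 (-1.34, 0.0968). Of 25 tested collagens and laminins, 3 were called lower and 0 higher (0 lower without CD44s-OE replicate 2), and their median was -0.02. TNC (tenascin-C), a matricellular glycoprotein, was called lower too (-1.58 ± 0.32, adjusted p = 0.0361), but not without CD44s-OE replicate 2 (-1.22, 0.453) or CD44v6-OE replicate 1 (-1.32, 0.337).

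**Figure D3:**
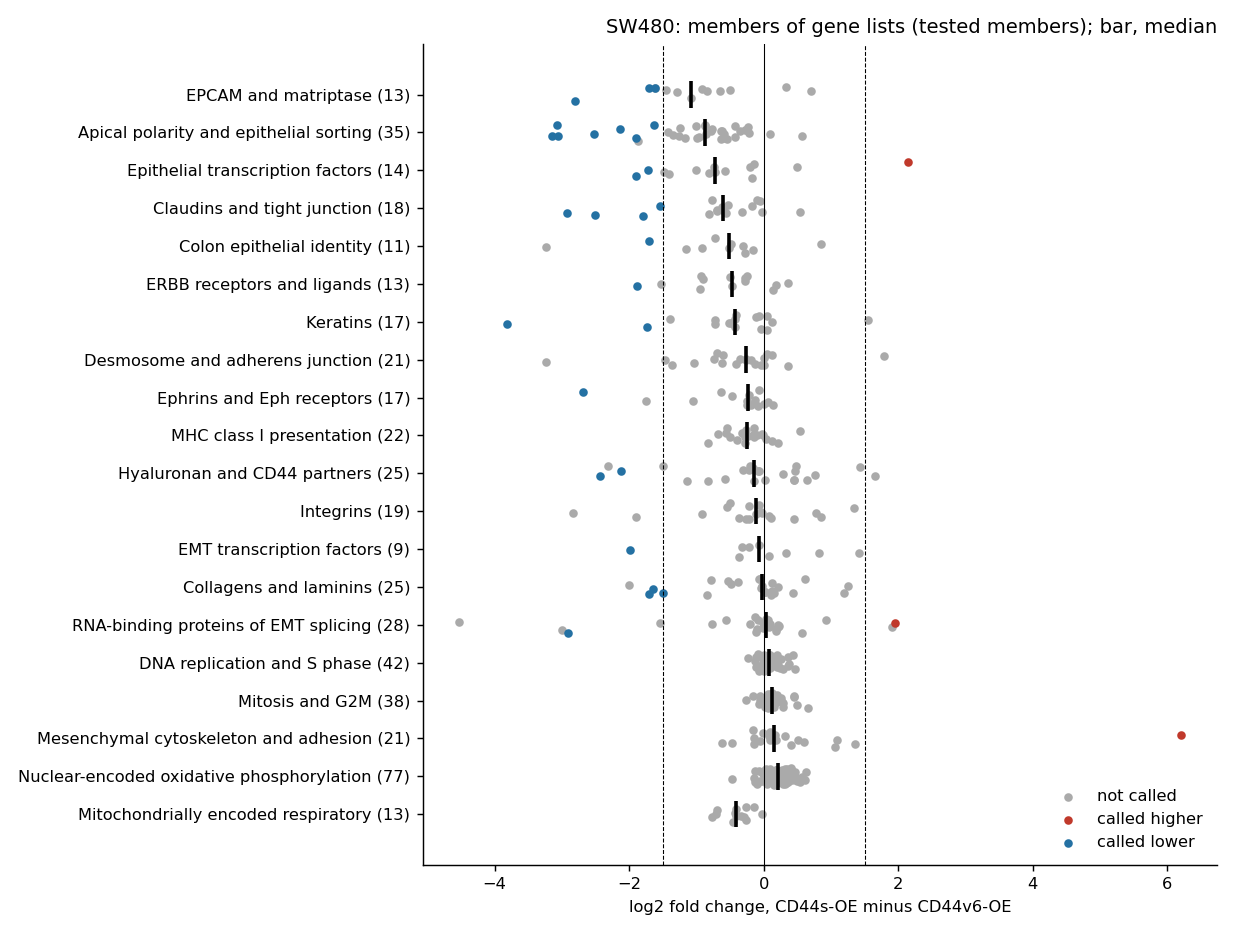
Each point is a tested gene of 20 gene lists, with its log2 fold change CD44s-OE minus CD44v6-OE in SW480 on the x axis, blue where called lower, red where called higher and grey where not called, and the black bar is the median of the list (number of tested genes in brackets, dashed lines at 1.5 and -1.5). The medians run from -1.08 for the list of EPCAM and matriptase to 0.22 for nuclear-encoded oxidative phosphorylation.

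Among transcription factors, epithelial ones differed in both directions. OVOL2, a zinc finger repressor of ZEB1, was at 2.51 and 2.38 CPM in CD44s-OE, at 9.33 and 8.95 CPM in CD44v6-OE and at 8.23 and 8.35 CPM in parental cells (-1.90 ± 0.23, adjusted p = 0.00253). EHF (hg19 chr11:34642640-34684835), an ETS factor of epithelia, went the other way. It was at 37.9 and 41.6 CPM in CD44s-OE, at 11.2 and 6.90 CPM in CD44v6-OE and at 3.63 and 5.01 CPM in parental cells. Both OE groups were above parental cells and CD44s-OE above CD44v6-OE (2.14 ± 0.26, adjusted p = 0.00245). Of 14 tested epithelial factors, 1 was called higher and 2 lower, 12 had a negative fold change and the median was -0.73. ZEB1 (hg19 chr10:31607424-31818742), an inducer of EMT, was at 26.4 and 14.4 CPM in CD44s-OE, at 7.95 and 7.27 CPM in CD44v6-OE and at 9.20 and 7.84 CPM in parental cells. It passed the adjusted p with a fold change just under the limit (1.42 ± 0.27, adjusted p = 0.0286), which it exceeded without CD44s-OE replicate 2 (1.79, adjusted p = 0.0419). SNAI3, of the SNAI family, was the called gene among 9 tested EMT factors and was lower (-1.99 ± 0.38, adjusted p = 0.0284), with an adjusted p of 0.147 to 0.237 when any 1 OE library was left out. Among factors of the intestinal lineage, GATA6 was called higher (2.21, 0.0259) and SATB1 lower (-1.86, 0.0357), and both calls were lost without any 1 OE library (adjusted p 0.146 to 0.339 and 0.115 to 0.478).

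Of 28 tested RNA-binding proteins linked to splicing in EMT, 1 was called lower and 1 higher, and the median was 0.04. ESRP1, which promotes inclusion of the CD44 variant exons, was at 7.68 and 4.60 CPM in CD44s-OE, at 47.4 and 45.3 CPM in CD44v6-OE and at 37.6 and 30.6 CPM in parental cells. CD44s-OE was lowest and CD44v6-OE highest, without overlap, at -2.92 ± 0.25 between them (adjusted p = 0.000367). Its paralog ESRP2 passed the adjusted p with a small fold change, from 46.3 and 61.1 CPM in CD44v6-OE to 30.7 and 32.0 CPM in CD44s-OE (-0.78 ± 0.17, adjusted p = 0.0576). ELAVL2, an RNA-binding protein of neurons, was at 3.20 and 3.54 CPM in CD44s-OE against 1.20 and 0.547 CPM (1.95 ± 0.42, adjusted p = 0.0537), a call lost without CD44s-OE replicate 1 (adjusted p = 0.231) or 2 (0.503) or CD44v6-OE replicate 2 (0.519).

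Several ligands and receptors of epithelia were lower in CD44s-OE. WNT10A (hg19 chr2:219745574-219764303), a Wnt ligand, was at 5.98 and 4.54 CPM in CD44s-OE, at 35.4 and 36.2 CPM in CD44v6-OE and at 41.3 and 28.8 CPM in parental cells. The CD44s-OE libraries alone stood apart, and the fold change was -2.77 ± 0.23 (adjusted p = 0.000367). EPHA1, a receptor tyrosine kinase for ephrins, was at 3.31 and 2.67 CPM against 19.7 and 18.9 CPM, with parental cells at 13.5 and 12.2 CPM (-2.69 ± 0.22, adjusted p = 0.000367). ERBB3, the neuregulin receptor, was at 19.9 and 15.7 CPM against 68.8 and 62.8 CPM, with parental cells at 47.4 and 34.4 CPM (-1.88 ± 0.20, adjusted p = 0.00115). For both receptors the order was CD44s-OE, parental, CD44v6-OE, without overlap. ERBB2, its partner, did not pass (-0.47, adjusted p = 0.187). The Hedgehog ligand SHH was called (-2.78 ± 0.49, adjusted p = 0.0235), but not without CD44s-OE replicate 1 (0.227) or 2 (0.469) or CD44v6-OE replicate 2 (0.135). WNT7A (-1.51, adjusted p = 0.0633) and the Notch ligand DLL1 (-1.75, 0.0292) lost their calls without any 1 OE library (adjusted p 0.212 to 0.688 and 0.212 to 0.303). NOTCH1, a receptor of DLL1, passed the adjusted p with a difference of -0.69 (0.0563). In the lists, 2 of 32 Wnt ligands and receptors, 1 of 13 ERBB receptors and ligands, 1 of 17 ephrins and Eph receptors and 1 of 25 Notch pathway genes were called, all lower, with medians of -0.14, -0.47, -0.23 and -0.19.

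Of 25 hyaluronan and CD44 partner genes, 2 were called lower and 0 higher, and the median was -0.14. CD74, the invariant chain that also forms the MIF receptor together with CD44, was at 11.9 and 10.2 CPM in CD44s-OE, at 58.7 and 37.1 CPM in CD44v6-OE and at 16.5 and 14.98 CPM in parental cells. The difference of -2.12 ± 0.23 (adjusted p = 0.0013) came with another order of the groups than in the receptors above, since CD44v6-OE was high against parental cells (1.60, adjusted p = 0.0247) while CD44s-OE was at -0.51 against them (adjusted p = 0.299). ANK3 (ankyrin-G), which links CD44 to the membrane skeleton, was at 1.07 and 0.413 CPM against 4.04 and 3.92 CPM (-2.43 ± 0.43, adjusted p = 0.0186), a call lost without CD44s-OE replicate 2 (0.224) or CD44v6-OE replicate 1 (0.137) or 2 (0.132). EZR (ezrin), which binds the tail of CD44, did not pass (-0.31, adjusted p = 0.498).

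Channels and transporters were called in both directions. SCNN1A, the alpha subunit of the epithelial sodium channel, was at 16.6 and 19.1 CPM in CD44s-OE, at 58.1 and 64.5 CPM in CD44v6-OE and at 45.5 and 39.9 CPM in parental cells (-1.78 ± 0.17, adjusted p = 0.000579). KCNH2, a potassium channel, was called lower (-2.56 ± 0.39, adjusted p = 0.0178), but not without CD44s-OE replicate 1 (0.237) or 2 (0.402). The glucose transporter SLC5A1 had 10 and 4 counts in CD44s-OE against 89 and 57 in CD44v6-OE (adjusted p = 0.0168), a call lost without CD44s-OE replicate 2 (0.275) or CD44v6-OE replicate 1 (0.192). The tetraspanin TSPAN1 was called at -1.89 (adjusted p = 0.0265), but not without CD44s-OE replicate 1 (0.148) or 2 (0.464) or CD44v6-OE replicate 2 (0.143). The sodium-proton exchanger SLC9A3 of the brush border was higher, at 92.2 and 110 CPM in CD44s-OE, at 23.4 and 16.7 CPM in CD44v6-OE and at 8.82 and 7.68 CPM in parental cells (2.33 ± 0.20, adjusted p = 0.000383), and was called in all 16 other settings. Of 57 ion channels, 2 were called lower and 1 higher (median -0.22), and of 24 brush border and enterocyte genes 2 lower and 1 higher (median -0.27). Of 23 tested chemokines and cytokines, 1 was called lower and 0 higher (median -0.27). CSF2 had 14 and 18 counts in CD44s-OE against 85 and 84 in CD44v6-OE (adjusted p = 0.0345). LTB (lymphotoxin beta) had 0 counts in both CD44s-OE libraries, 14 and 15 in CD44v6-OE and 2 and 4 in parental cells. Between the OE groups it was at least 2.34-fold lower with the 6 counts per library that a 0 allows (adjusted p = 0.0593). Both calls were lost without any 1 OE library (adjusted p 0.194 to 0.365 and 0.264 to 0.521). IL16 was at 70.7 and 93.5 CPM in CD44s-OE, at 36.6 and 18.2 CPM in CD44v6-OE and at 6.61 and 11.8 CPM in parental cells. It did not pass (1.58 ± 0.38, adjusted p = 0.146), but was called higher in 8 of 16 other settings. LIF was at 102 and 110 CPM against 104 and 115 CPM (-0.04, adjusted p = 0.96). The chemokine CXCL16 passed the adjusted p only (-1.16, 0.0139). IL32 was at 0.941 and 0.570 CPM in CD44s-OE against 3.03 and 3.70 CPM, with parental libraries at 3.91 and 0.546 CPM, and did not pass (-2.15, adjusted p = 0.37), and it was called in 4 of 16 other settings, with the 4 OE libraries alone (adjusted p = 0.00135), without a filter on low counts (6.15e-05) and without parental replicate 1 (0.00095) or 2 (0.000391), but neither with DESeq2 nor with any 1 OE library left out (0.487 to 0.998).

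Other large decreases, by the rule for the largest fold changes, were in genes of several kinds. MAB21L4 was at 4.43 and 2.61 CPM in CD44s-OE against 24.1 and 25.6 CPM in CD44v6-OE (-2.82 ± 0.30, adjusted p = 0.00148). SHANK2, a scaffold known from synapses and epithelia, was at 0.502 and 0.747 CPM against 4.42 and 5.10 CPM (-2.92 ± 0.36, adjusted p = 0.00253). NT5DC4 had a fold change of -2.96 ± 0.23 (adjusted p = 0.000367). The calls of these 3 remained with any 1 library left out. The serine protease gene PRSS56 was at 0.962 and 0.570 CPM against 7.67 and 4.31 CPM (-2.97 ± 0.54, adjusted p = 0.0302), a call lost without CD44s-OE replicate 1 (0.191) or 2 (0.507) or CD44v6-OE replicate 1 (0.142).

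Of the 51 genes called higher in CD44s-OE, 9 were on any of the 53 lists (17.6%), against 40 of the 128 lower genes (31.2%) and 7.3% of all genes tested. The lists were written with earlier results of these data known, so these shares are not a result about the genes. CDH11 (hg19 chr16:64977656-65160015), a mesenchymal cadherin also known from osteoblasts, was at 11.8 and 12.6 CPM in CD44s-OE, at 0.0854 and 0.241 CPM in CD44v6-OE and at 0.280 and 1.94 CPM in parental cells. In counts, this was 565 and 639 against 4 and 11. The CD44s-OE replicates were close to each other and far above all others, with a fold change of 6.21 ± 0.91 (adjusted p = 0.0292), but the call was lost without CD44s-OE replicate 1 (0.138) or 2 (0.221) or CD44v6-OE replicate 1 (0.21) or 2 (0.151). The antisense RNA ARNTL2-AS1 (hg19 chr12:27542722-27599558) was at 19.9 and 36.0 CPM in CD44s-OE, at 0.619 and 0.963 CPM in CD44v6-OE and at 0.0254 and 0.182 CPM in parental cells (5.14 ± 0.44, adjusted p = 0.000652), and was called in all 16 other settings. CD44v6-OE was above parental cells and far below CD44s-OE. GNG11 (hg19 chr7:93551047-93557922), a G protein gamma subunit, was at 52.2 and 81.5 CPM in CD44s-OE, at 14.5 and 9.96 CPM in CD44v6-OE and at 11.1 and 19.4 CPM in parental cells (2.45 ± 0.33, adjusted p = 0.00728, and 0.123 without CD44s-OE replicate 2). Here CD44v6-OE overlapped with parental cells. IGFBP7, a secreted binding protein for insulin-like growth factors, was chosen after its values were seen, for its high level. It was at 110 and 133 CPM in CD44s-OE, at 22.6 and 39.6 CPM in CD44v6-OE and at 35.6 and 56.2 CPM in parental cells (1.97 ± 0.30, adjusted p = 0.014), and its call was lost without CD44s-OE replicate 1 (0.131) or 2 (0.255).

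Among further genes called higher, LIX1 was at 4.54 and 6.49 CPM in CD44s-OE against 0.641 and 0.306 CPM (3.53 ± 0.50), TMEM204 at 8.14 and 14.1 CPM against 1.75 and 2.65 CPM (2.34 ± 0.33), and MUCL1, a small mucin-like protein of glands, at 21.4 and 33.4 CPM against 6.37 and 5.41 CPM (2.22 ± 0.32). The calls of these 3 were lost without CD44s-OE replicate 2 (adjusted p = 0.156, 0.128 and 0.142). The cation channel TRPM3 was at 2.24 and 3.48 CPM against 0.214 and 0.131 CPM (4.03 ± 0.56, adjusted p = 0.00517, and 0.141 without CD44s-OE replicate 2). PDE10A, a cyclic nucleotide phosphodiesterase, was at 1.80 and 1.99 CPM against 0.256 and 0.131 CPM (3.27 ± 0.50, adjusted p = 0.00778), but the parental libraries were at 1.22 and 1.88 CPM, so that CD44v6-OE was the low group. This call was lost without CD44s-OE replicate 2 (0.128) or CD44v6-OE replicate 2 (0.133). TSHZ2 (2.47), the lipid kinase PIP5K1B (2.26) and the neuronal membrane protein PLPPR4 (2.16) were called with an adjusted p of 0.012, 0.0168 and 0.083. Each lost its call without CD44s-OE replicate 1 (adjusted p = 0.141, 0.133 and 0.28) or 2 (0.168, 0.255 and 0.635), TSHZ2 also without CD44v6-OE replicate 2 (0.172), PIP5K1B without CD44v6-OE replicate 1 (0.188) and PLPPR4 without either (0.121 and 0.523). The neighbouring homeobox genes HOXD8 (1.60, adjusted p = 0.0187) and HOXD4 (22 and 46 counts against 0 and 2, adjusted p = 0.0487) were the called genes among 37 tested HOX genes (median 0.07), and neither call held without any 1 OE library (0.131 to 0.305 and 0.158 to 0.602). LINC02178 (4.17) was called in all 16 other settings.

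**Figure D4:**
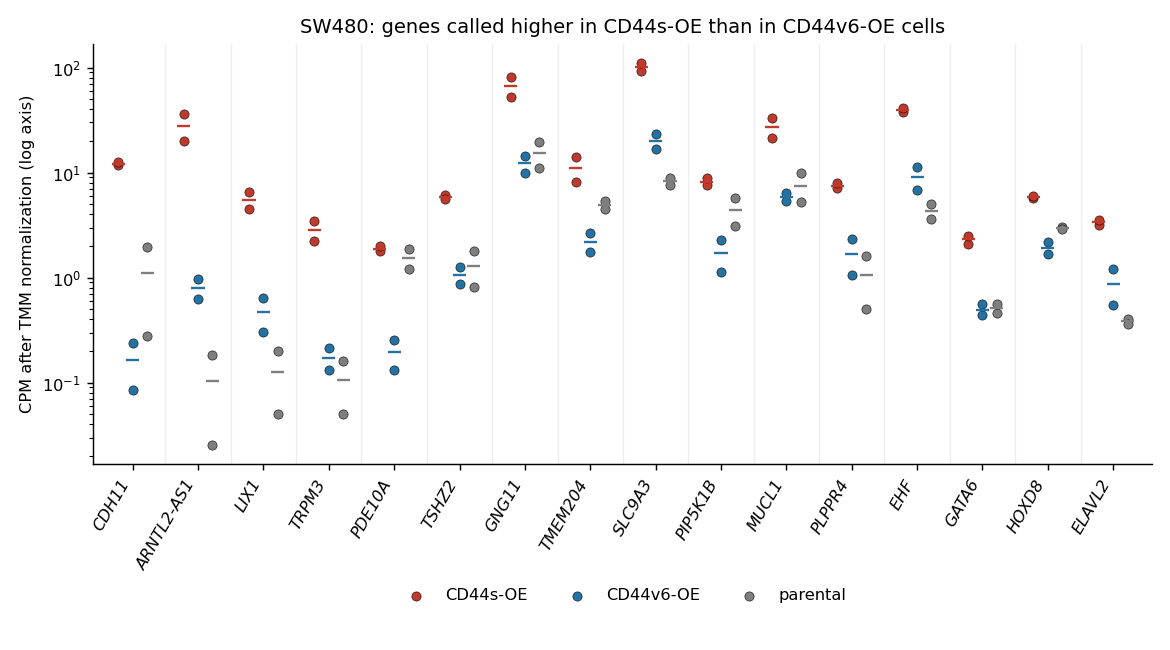
CPM after TMM normalization (log axis) of 16 SW480 genes called higher in CD44s-OE cells, with 1 point per library and a bar at the mean of the 2 libraries of CD44s-OE (red), CD44v6-OE (blue) and parental cells (grey). Every red pair lies above the blue pair of its gene, and for PDE10A the parental pair lies close to the red one.

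Few genes of the mesenchymal cytoskeleton and matrix passed the test in SW480. Of 21 tested genes of mesenchymal cytoskeleton and adhesion, CDH11 was called higher, 0 were called lower, 14 had a positive fold change and the median was 0.15. VIM (vimentin), an intermediate filament of mesenchymal cells, was at 968 and 902 CPM in CD44s-OE, at 786 and 632 CPM in CD44v6-OE and at 1091 and 733 CPM in parental cells (0.40 ± 0.21, adjusted p = 0.552). The parental libraries overlapped with both OE groups. SPARC, a matricellular protein, was at 2.03 and 2.91 CPM in CD44s-OE, at 1.54 and 1.25 CPM in CD44v6-OE and at 0.407 and 0.485 CPM in parental cells (0.83 ± 0.38, adjusted p = 0.463). Lists of general cell functions held 0 called genes by edgeR. All 13 mitochondrially encoded respiratory genes had a negative fold change (median -0.41), although both CD44s-OE libraries lay below both CD44v6-OE ones for 1 of them. CD44v6-OE replicate 2 was above both CD44s-OE libraries for 13 and replicate 1 below both for 4, and over the 13 genes the libraries summed to 49626 and 40144 CPM in CD44s-OE and to 39556 and 66743 CPM in CD44v6-OE. Of 77 nuclear-encoded genes of oxidative phosphorylation, 67 had a positive fold change (median 0.22), with 0 at an adjusted p under 0.1 in either list. The same held for mitosis and G2M genes (33 of 38 positive, median 0.13) and for MHC class I presentation (18 of 22 negative, median -0.25). Of 45 interferon-stimulated genes, 3 passed the adjusted p in the higher direction and 0 in the lower, against 0.57% and 1.55% of all genes tested. Of these 45, 25 had a negative fold change and the median was -0.08.

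The parental libraries showed which group departed from untransfected cells, in contrasts that share these libraries and are given side by side. Of the 128 lower genes, both CD44s-OE libraries lay below both parental ones for 116 (90.6%, against 20.5% of all genes tested), and both CD44v6-OE libraries lay above both for 74 (57.8%, against 20.2%). Their median fold change against parental cells was -1.68 in CD44s-OE and 0.47 in CD44v6-OE. Of the 51 higher genes, both CD44s-OE libraries were above both parental ones for 48 (94.1%, against 22.1%), and both CD44v6-OE libraries were below them for 17 (33.3%, against 18.5%). The medians were 2.17 in CD44s-OE and -0.10 in CD44v6-OE. Genes were selected here by their level in the OE groups, so these shares have no test. For CLDN7, the fold changes against parental cells were -2.49 in CD44s-OE and 0.43 in CD44v6-OE. For KRT13 they were -3.71 and 0.11, for CRB3 -2.39 and 0.13, for EPCAM -1.80 and -0.09, for ESRP1 -2.47 and 0.44, for WNT10A -2.73 and 0.03 and for LAMA3 -1.71 and -0.06. CDH11 was at 3.42 ± 0.73 in CD44s-OE (adjusted p = 0.0725 in edgeR's test). In CD44v6-OE it was at -2.79 ± 0.93 and did not pass (adjusted p = 0.445), with 4 and 11 counts against 11 and 96 in parental cells.

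HCT116, a second colon cancer line with the same 2 plasmids and 2 libraries per group, served to show where SW480 differed. The difference between lines, SW480 minus HCT116, passed for 96 of 19567 genes (0.491%) at an adjusted p under 0.1. This count was 13 without SW480 CD44s-OE replicate 2, 8 and 6 without HCT116 CD44v6-OE replicate 1 and 2, and up to 228 with other libraries left out. Of the lower genes, 109 were tested in HCT116, 96 of them with a negative fold change (median -0.58) and 6 called lower. Of the higher genes, 20 were tested there, with 8 positive (median -0.10) and 0 called. The HCT116 median over all genes tested in SW480, where they had a value, was 0.006. Shares negative or called over all genes were not taken in HCT116, so these counts are given without a background and are not a result. CLDN7 had a fold change of -0.92 ± 0.18 in HCT116, against -2.92 in SW480, and the lines differed by -2.01 (adjusted p = 0.0187). For CDH3, at -0.62 in HCT116, the lines differed by -2.32 (adjusted p = 0.0099), and for ESRP1, at -1.06, by -1.87 (adjusted p = 0.0187). Both lines moved in one direction for these 3, with SW480 the larger. EHF was at 2.14 in SW480 and at -1.02 in HCT116, where it did not pass edgeR's test (adjusted p = 0.111). For EHF the lines differed by 3.14 (adjusted p = 0.0099). For EPCAM (-0.82 in HCT116), ST14 (-1.11), MAL2 (-1.65) and SCNN1A (-1.10) the difference between lines did not pass. VIM and SPARC showed the reverse, with fold changes of 2.65 and 4.44 in HCT116, and the lines differed by -2.26 (adjusted p = 0.0695) and -3.62 (adjusted p = 0.0937).

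**Figure D5:**
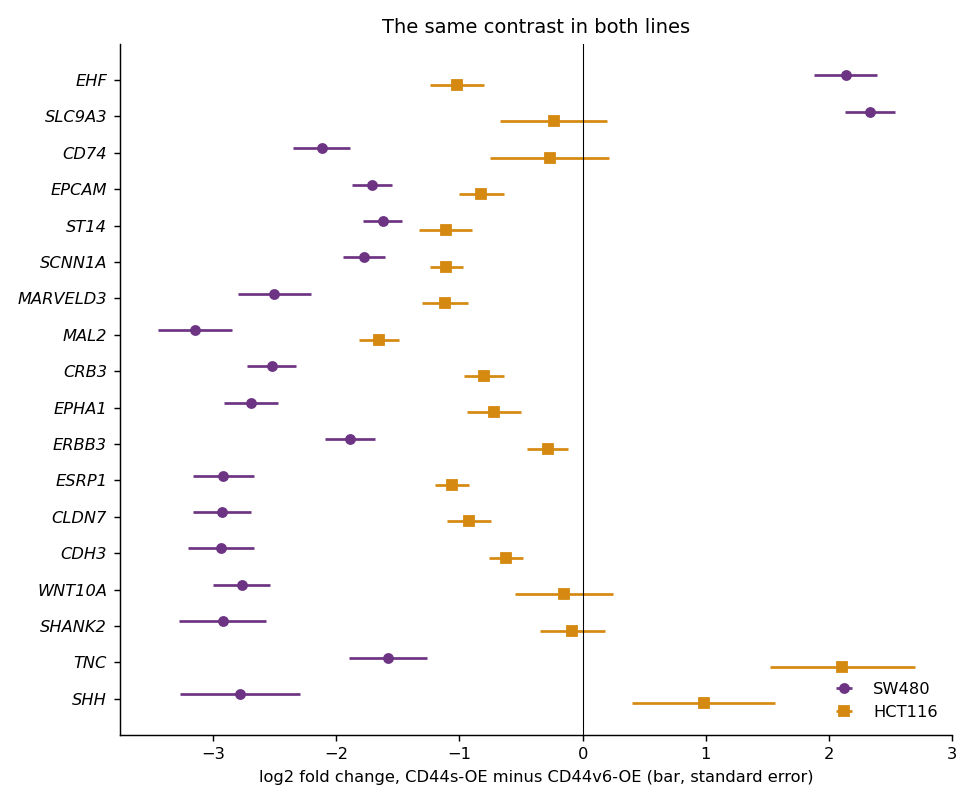
Log2 fold changes CD44s-OE minus CD44v6-OE of 18 genes called in SW480 (purple circles) and the same contrast in HCT116 (orange squares), with bars for standard errors. MAL2, EPCAM, ST14, SCNN1A and MARVELD3 lie left of 0 in both lines, whereas EHF, TNC and SHH lie on opposite sides of 0.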

How the data were processed

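RNA of 12 libraries was analysed, of which the 6 of SW480 (2 parental, 2 CD44s-OE and 2 CD44v6-OE, grouped by their labels) entered the main fit. According to their processing notes and methods, the authors filtered reads with SOAPnuke, aligned them to hg19 with STAR 2.7.9a, marked duplicates with Sambamba and counted reads per gene with featureCounts of Subread 2.0.3 on a lifted GENCODE annotation. The deposited table holds the authors' raw counts of 62426 genes, reverse-stranded, with each read of a pair taken as counted. A second deposited table, with the authors' variance-stabilized log2 values of the 40400 genes with any count (DESeq2 1.30.1), was used for 1 alternative only. Of the gene IDs, 28270 had a symbol in the deposited table, 16412 more in the reference annotation and 17744 in neither.

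The counts were fitted with edgeR 4.0.16 in R 4.3.3 (TMM, filterByExpr, quasi-likelihood test with robust=TRUE and 3 residual degrees of freedom). P-values were adjusted by Benjamini-Hochberg over all genes tested, and calls asked for an adjusted p under 0.1 with a log2 fold change beyond 1.5 in size. A joint fit of all 12 libraries tested the difference between lines. The log2 CPM of plots used a prior count of 2. The fit was tested on simulated data. Replicate numbers did not pair the samples. Alternatives were RLE size factors, DESeq2 1.42.0, a mean count minimum of 50 or no filter, robust=FALSE, a replicate block, the 4 OE libraries alone, each library left out, halved counts, limma 3.58.1 on the variance-stabilized values and other thresholds. A block with crossed replicate numbers was added after seeing the data. The 53 gene lists and the genes compared were chosen with earlier results of these data known. Named genes are the 12 largest called fold changes in each direction (symbol, mean of at least 1 log2 CPM, no overlap between the OE groups), up to 4 called and the 3 highest members of a list, and genes the study names. Others are marked, and some items are not reported here. Lists carry no test. RefSeq promoters (GRCh38.p14) were matched by symbol or gene ID, and coordinates of genes are those of hg19.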

Additional observations from a re-analysis of the deposited data

Results flagged for a closer look

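For 23 genes named above, the fold change of CD44s-OE over CD44v6-OE differed between SW480 and HCT116 in edgeR's quasi-likelihood test of that difference (SW480 minus HCT116, adjusted p under 0.1 over 19567 genes). The values are log2 differences between lines. They were negative for the junction and polarity genes CLDN7 (-2.01), CRB3 (-1.73), TMC4 (-1.59), F11R (-1.47) and TJP3 (-1.30), for CDH3 (-2.32), KRT15 (-1.55), ESRP1 (-1.87) and PRSS22 (-2.08), and for the signalling genes SHH (-3.76), WNT10A (-2.62), EPHA1 (-1.98), DLL1 (-1.90) and ERBB3 (-1.61). SHANK2 (-2.84) and the channel gene KCNH2 (-2.22) were negative as well. In SW480 all of these 16 were called lower in CD44s-OE. TNC differed by -3.70, with a fold change of -1.58 in SW480 and of 2.11 in HCT116. SPARC (-3.62) and VIM (-2.26) did so with the larger increase in HCT116, and both passed the adjusted p there. The difference was positive for 4 genes called higher in SW480, PDE10A (3.65), EHF (3.14), SLC9A3 (2.56) and GATA6 (2.39). Their fold changes in HCT116 were -0.39, -1.02, -0.23 and -0.19, and none passed there (adjusted p 0.111 to 0.908 in edgeR's test). The count of genes with such a difference moved strongly with single libraries, as given above. Genes called in SW480 were selected by their fold change there, which is part of this difference, so their number is not a result. Causes were not tested.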

How the results depend on the processing

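Of 62 called genes named above, 62 kept their direction in every refitted setting that gave them a value (14 of 16 for LTB, 15 for HOXD4 and SLC5A1 and 16 for the others) and 22 their call in all 16, and each other gene lost it in at least 1. LIF, which was not called, changed sign without CD44s-OE replicate 1 or CD44v6-OE replicate 2, ranging from -0.12 to 0.0197 over the libraries left out. The counts of higher and lower genes moved by more than 1.5 times without a filter on low counts (91 and 202), with the 4 OE libraries alone (115 and 212), with limma on variance-stabilized values (19 and 56), and without a minimum fold change (100 and 271) or with one of 1 (78 and 210). With 1 library left out they ranged from 5 to 109 and from 33 to 213. The number of genes that differed between lines was 37 at an adjusted p under 0.05 and ranged from 6 to 228 with 1 library left out. Of the 128 lower genes, 127 were called with DESeq2 (163 in all) and 56 with limma. Of the 51 higher genes, 50 were called with DESeq2 (67 in all) and 18 with limma. A replicate block gave 56 higher and 132 lower genes, of which 51 and 119 were also called without it, and 91 genes that differed between lines. Deviations from group means correlated by -0.247 between parental and CD44s-OE, by -0.143 between the OE groups and by 0.124 between parental and CD44v6-OE libraries of one number, so the numbers pair nothing here. A block with crossed numbers gave 58 and 142. Of 512 list counts over settings, 358 stayed within 1.5 times and 154 moved. Signs of the list medians given above held with RLE, DESeq2 and variance-stabilized values. Differences of genes with few counts, such as HOXD4, LTB and SLC5A1, are limited by depth.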

Other observations

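Genes could differ widely between the OE groups without a call where the parental replicates lay far apart, since these add to the estimate of the spread. The 2 examples below were chosen after their values were seen. SLC1A3, a glutamate transporter, was at 76.0 and 78.5 CPM in CD44s-OE against 2.93 and 5.43 CPM in CD44v6-OE, with the parental libraries at 1.78 and 20.9 CPM. Its log2 fold change of 4.21 ± 1.27 had an adjusted p of 0.388 in edgeR's quasi-likelihood test, and of 5.06e-07 with the 4 OE libraries alone. NOS3, the endothelial nitric oxide synthase, was at 2.89 and 3.01 CPM in CD44s-OE against 46.4 and 48.5 CPM in CD44v6-OE, with the parental libraries at 95.7 and 8.23 CPM. Its log2 fold change of -4.01 ± 1.31 had an adjusted p of 0.424, and of 2.3e-08 with the 4 OE libraries alone. Both genes were called in 5 of 16 other settings, among them DESeq2 (adjusted p = 0.0239 for SLC1A3 and 0.0307 for NOS3) and the fits without parental replicate 1 (2.94e-08 and 9.84e-10) or 2 (4.14e-08 and 2.4e-10). With any 1 OE library left out, neither was called.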
